A study of Rattus norvegicus with 4 samples.

Results

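The vascular microRNAs (miRNAs, small RNAs that pair with messages and silence them) of rat liver are described here: rno-miR-143 and rno-miR-145, made mainly by smooth muscle, and rno-miR-126 and rno-miR-126*, made mainly by endothelium. They were chosen by name, with earlier results of these data known. They are 4 of the 680 rat miRNA names in the files and 4 of the 294 with a read in any library. The study set liver tissue labelled as hepatic fibrosis (2 samples) against liver tissue labelled as normal (2 samples), and asked which miRNAs differ between them. The labels state neither the strain, age or sex of the rats nor the agent or duration that produced fibrosis, and do not say whether the samples came from separate animals. All samples were small RNA libraries from total RNA of whole liver tissue.

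The second fibrosis file and the second normal file hold the same value for each of the 680 names, with 0 differences, and were counted once, as the shared library. Its tissue is not settled by the labels. The column header of the second normal file also does not match its title. This leaves 3 distinct libraries, 1 with the fibrosis label (fibrosis replicate 1), 1 with the normal label (normal replicate 1) and the shared library. Levels are in RPM, the reads of a miRNA as scaled by the authors to a common library total. The scaling totals recovered from the values were 6951148 reads in fibrosis replicate 1, 6357069 in the shared library and 7070374 in normal replicate 1. A miRNA with 0 reads could still have a level of 0.432 RPM in fibrosis replicate 1, 0.472 RPM in the shared library or 0.424 RPM in normal replicate 1. Intervals below are exact 95% intervals that cover counting error only, not the spread between animals.

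As background, miR-143 and miR-145 are processed from a shared primary transcript that serum response factor and myocardin switch on in smooth muscle. In mouse and human cells they favour the contractile state, miR-145 by repressing KLF4 and KLF5 and miR-143 by repressing ELK1. They are also made by pericytes and fibroblasts. miR-126 and miR-126* are opposite arms of the same hairpin, encoded within the endothelial gene Egfl7. In mouse, miR-126 sustains signalling by vascular endothelial growth factor by repressing Spred1 and Pik3r2, and miR-126* represses Dlk1 in endothelium. In liver these cells form the walls of the portal and arterial vessels and the lining of the sinusoids. In bulk tissue, fewer cells of a type and less RNA per cell cannot be told apart.

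The mature sequences are shown because they fix which arm each name stands for and how far the members can exchange reads with other miRNAs. All 4 members matched a RefSeq entry (build GRCr8, while the submitters' processing notes name rn5). Capitals mark the seed, bases 2 to 8 from the 5′ end, which pairs with target messages. The minor arms of miR-143 and miR-145 follow, since they are used below.
rno-miR-143 (RefSeq rno-miR-143-3p, chr18:57371373-57371394, minus strand): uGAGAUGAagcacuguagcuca
rno-miR-145 (RefSeq rno-miR-145-5p, chr18:57370033-57370055, minus strand): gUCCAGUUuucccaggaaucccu
rno-miR-126 (RefSeq rno-miR-126a-3p, chr3:29813219-29813240, plus strand): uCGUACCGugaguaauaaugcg
rno-miR-126* (RefSeq rno-miR-126a-5p, chr3:29813182-29813202, plus strand): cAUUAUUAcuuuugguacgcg
rno-miR-143* (RefSeq rno-miR-143-5p, chr18:57371408-57371428, minus strand): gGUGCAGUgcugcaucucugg
rno-miR-145* (RefSeq rno-miR-145-3p, chr18:57369997-57370017, minus strand): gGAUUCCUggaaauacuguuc

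The members carry 4 distinct seeds, and none of the other mature rat sequences in the RefSeq table has any of them. Among the 693 mature sequences compared, the nearest to miR-143 and to miR-126* differed by 8 edits each, and the nearest to miR-145 and to miR-126 by 9 edits each. An edit is a changed, added or missing base. The members are 21 to 23 bases long, so RPM needs no correction for length, although small RNA libraries capture different sequences with different efficiency. RefSeq also places rno-miR-126b on the strand opposite miR-126*, where 17 bases overlap. Whether reads were counted by strand is not given in the sources used here.

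The hairpins of the clustered pair are shown because the results turn on how miR-143 compares with miR-145 and with the opposite arm. Capitals mark the arm that is a member. Both lie within the span of the long noncoding RNA gene Carmn, 1278 bases apart, and miR-126 lies within the span of Egfl7.
Mir143 hairpin (GRCr8 chr18:57371349-57371453, minus strand): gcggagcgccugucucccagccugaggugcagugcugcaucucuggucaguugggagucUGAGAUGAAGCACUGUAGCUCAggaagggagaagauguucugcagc
Mir145 hairpin (GRCr8 chr18:57369983-57370070, minus strand): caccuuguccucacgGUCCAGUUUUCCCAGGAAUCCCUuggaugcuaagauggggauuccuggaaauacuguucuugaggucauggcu
In Mir143 the member is the 3′ arm, and in Mir145 it is the 5′ arm. The arms are separated by 13 bases in Mir143 and by 15 bases in Mir145.

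Among the smooth muscle members, miR-143 was the most abundant of the 4 in every library. It stood at 62.1 RPM in fibrosis replicate 1 (432 reads, interval 56.4 to 68.3 RPM), at 91.2 RPM in the shared library (580 reads, 84.0 to 99.0) and at 97.3 RPM in normal replicate 1 (688 reads, 90.2 to 104.9). The shared library and normal replicate 1 had overlapping intervals, and fibrosis replicate 1 lay below both. miR-143 ranked 35th of 250 detected miRNAs in fibrosis replicate 1, 30th of 236 in the shared library and 32nd of 239 in normal replicate 1. Its neighbours in the abundance order of normal replicate 1 were miR-31 at 100.3 RPM and miR-185 at 97.2 RPM.

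miR-145 was far less abundant than the miR-143 it is transcribed with. It stood at 9.21 RPM in fibrosis replicate 1 (64 reads, 7.09 to 11.8), at 6.92 RPM in the shared library (44 reads, 5.03 to 9.29) and at 13.7 RPM in normal replicate 1 (97 reads, 11.1 to 16.7). Normal replicate 1 was the highest library, and the shared library, not fibrosis replicate 1, the lowest. Its neighbours in normal replicate 1 were miR-30c-2* at 13.9 RPM and miR-511* at 13.2 RPM.

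Among the endothelial members, the arm with the asterisk was the more abundant. miR-126* stood at 6.04 RPM in fibrosis replicate 1 (42 reads, 4.35 to 8.17), at 8.18 RPM in the shared library (52 reads, 6.11 to 10.7) and at 5.37 RPM in normal replicate 1 (38 reads, 3.80 to 7.38). miR-126 stood at 1.73 RPM in fibrosis replicate 1 (12 reads, 0.892 to 3.02), at 2.67 RPM in the shared library (17 reads, 1.56 to 4.28) and at 1.13 RPM in normal replicate 1 (8 reads, 0.488 to 2.23). Both arms were highest in the shared library and lowest in normal replicate 1, and the intervals of all 3 libraries overlapped for each arm. In normal replicate 1 the nearest miRNAs in abundance were miR-34c (5.66 RPM) and miR-93 (5.37 RPM) for miR-126*, and miR-802 (1.27 RPM) and miR-182 (1.13 RPM) for miR-126. miR-93 had as many reads as miR-126*, and miR-126 was tied with 3 miRNAs, of which miR-182 is 1.

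**Figure D1:**
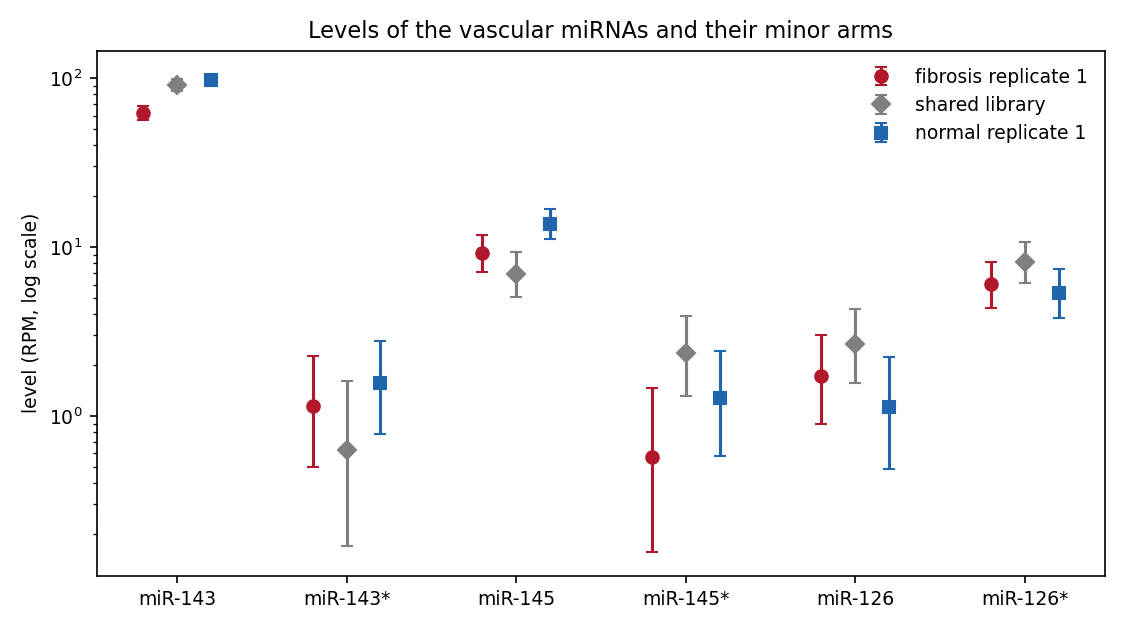
Levels in RPM (vertical axis, log scale) of the 4 members and of the minor arms miR-143* and miR-145* in the 3 distinct libraries, with bars for the exact 95% counting interval. miR-143 lies between 62.1 and 97.3 RPM, while miR-126 lies between 1.13 and 2.67 RPM with wide bars.

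The order of the members by level was miR-143, miR-145, miR-126* and miR-126 in fibrosis replicate 1 and in normal replicate 1. In the shared library miR-145 and miR-126* changed places. The reads of miR-145 were 1.52 times those of miR-126* in fibrosis replicate 1 (1.02 to 2.31), 0.846 times in the shared library (0.553 to 1.29) and 2.55 times in normal replicate 1 (1.74 to 3.82). Only in the shared library could these neighbours not be told apart by counting error. The 4 members together gave 550 reads in fibrosis replicate 1, 693 in the shared library and 831 in normal replicate 1.

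Set against normal replicate 1, fibrosis replicate 1 had lower levels of both smooth muscle members and no detectable difference in either endothelial member. The ratio between these libraries was 0.639 for miR-143 (0.565 to 0.721, log2 ratio -0.65) and 0.671 for miR-145 (0.482 to 0.93, log2 ratio -0.58). It was 1.53 for miR-126 (0.573 to 4.30, log2 ratio 0.61) and 1.12 for miR-126* (0.708 to 1.79, log2 ratio 0.17), and both of these intervals included 1. At these depths the endothelial intervals allow a ratio well to either side of 1.

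These ratios were read against all 147 miRNAs whose mean over the pair reached 1 RPM, where the interval excluded 1 on the lower side for 22.4% and on the higher side for 13.6%. Of the 4 members, 2 were on the lower side and 0 on the higher. The median ratio over all 147 was 0.916 (log2 -0.13), with 95 below 1 and 52 above, so the deposited scaling placed most miRNAs slightly lower in fibrosis replicate 1. Counted from the lowest ratio, miR-143 was 15th and miR-145 17th of the 147, miR-126* was 102nd and miR-126 138th. With 1 library on each side there is no replicate check, and the ratios describe the libraries and not the conditions.

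**Figure D2:**
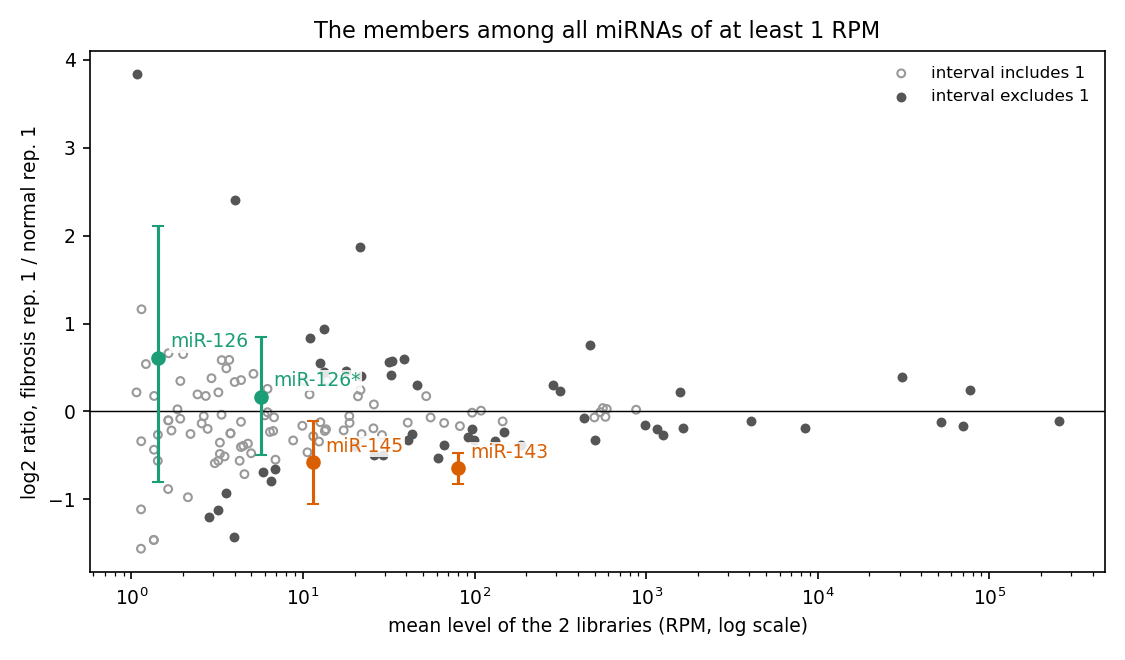
Log2 ratio of fibrosis replicate 1 to normal replicate 1 (vertical axis) against mean level in RPM (horizontal axis, log scale) for the 147 miRNAs whose mean reached 1 RPM. Dark filled points have a counting interval that excludes 1, and the members carry their 95% interval: miR-143 (-0.65) and miR-145 (-0.58) lie below 0 with bars clear of it, and the bars of miR-126 and miR-126* cross 0.

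For the smooth muscle pair, the shared library resembled a different library for each member. Set against normal replicate 1, the shared library had a ratio of 0.938 for miR-143 (0.838 to 1.05) and of 0.505 for miR-145 (0.345 to 0.728). Fibrosis replicate 1 set against the shared library had a ratio of 0.681 for miR-143 (0.600 to 0.773) and of 1.33 for miR-145 (0.892 to 2). The shared library thus lay near normal replicate 1 in miR-143 and nearer to fibrosis replicate 1 in miR-145.

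For the endothelial pair, the shared library over normal replicate 1 gave a ratio of 2.36 for miR-126 (0.967 to 6.33) and of 1.52 for miR-126* (0.983 to 2.38). Fibrosis replicate 1 over the shared library gave 0.646 for miR-126 (0.281 to 1.43) and 0.739 for miR-126* (0.480 to 1.13). All 4 intervals included 1. Summed over both arms, the shared library held 10.9 RPM against 6.51 RPM in normal replicate 1, a ratio of 1.67 (1.13 to 2.48), and fibrosis replicate 1 held 7.77 RPM, a ratio to normal replicate 1 of 1.19 (0.791 to 1.81).

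Across all miRNAs of at least 1 RPM, the interval of the shared library over normal replicate 1 excluded 1 on the lower side for 29.7% and on the higher side for 18.2% of 148 miRNAs, against 1 and 0 of the 4 members. For fibrosis replicate 1 over the shared library the shares were 20.4% and 22.4% of 147, against 1 and 0 of the 4 members. These comparisons share libraries with each other and with the first pair. If the shared library is fibrotic liver, the fibrosis libraries stand apart by a ratio of 0.681 in miR-143, close to the 0.639 between fibrosis replicate 1 and normal replicate 1. If it is normal liver, the normal libraries stand apart by a ratio of 0.505 in miR-145, farther from 1 than the 0.671 between fibrosis replicate 1 and normal replicate 1.

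**Figure D3:**
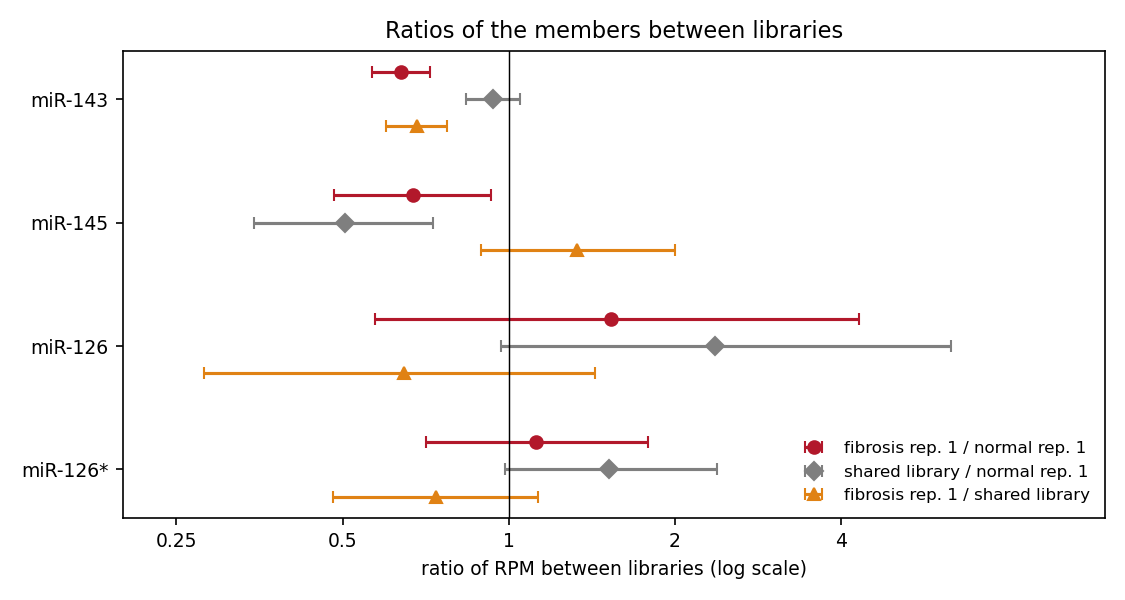
Ratio of RPM between libraries (horizontal axis, log scale) for each member, for the 3 pairs of distinct libraries, with exact 95% counting intervals and a line at 1. The interval of miR-143 lies below 1 where fibrosis replicate 1 is the numerator (0.639 and 0.681), and that of miR-145 where normal replicate 1 is the denominator (0.671 and 0.505).

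Ratios within a library do not depend on the scaling to a library total. The clustered pair kept nearly the same proportion in fibrosis replicate 1, at 6.75 reads of miR-143 for each read of miR-145 (5.18 to 8.92), as in normal replicate 1, at 7.09 (5.73 to 8.87). The first ratio divided by the second was 0.952 (0.671 to 1.36). The shared library stood apart, with 13.2 reads of miR-143 for each read of miR-145 (9.69 to 18.3), which is 1.86 times the proportion in normal replicate 1 (1.26 to 2.76). Fibrosis replicate 1 had 0.512 times the proportion of the shared library (0.334 to 0.781).

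The shared library also stood apart in the arms of miR-145. miR-145* had 4 reads in fibrosis replicate 1, 15 in the shared library and 9 in normal replicate 1, or 0.575, 2.36 and 1.27 RPM. The reads of miR-145 were 16.0 times those of miR-145* in fibrosis replicate 1 (5.95 to 60.5), 2.93 times in the shared library (1.60 to 5.67) and 10.8 times in normal replicate 1 (5.45 to 24.3). The shared library had 0.272 times the arm proportion of normal replicate 1 (0.0978 to 0.729), and fibrosis replicate 1 had 5.45 times that of the shared library (1.58 to 23.8). The miR-145 hairpin thus had fewer reads of its major arm and more of its minor arm in the shared library than in either other library. Taken alone, miR-145* in the shared library was 1.85 times that in normal replicate 1, with an interval that includes 1 (0.760 to 4.80). The ratio of miR-145 between fibrosis replicate 1 and the shared library, 1.33, also had an interval that includes 1 (0.892 to 2). The intervals of miR-145 against normal replicate 1 and of miR-145* against fibrosis replicate 1 excluded 1.

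The same arm proportion was taken over the other hairpins. Among 67 miRNAs listed with both a plain and a starred name and with at least 20 reads over both arms in each library, the arm proportion differed beyond counting error for 2.99% between the shared library and normal replicate 1, miR-145 being 1 of these 2. The share was 7.46% between fibrosis replicate 1 and the shared library, and 1.49% between fibrosis replicate 1 and normal replicate 1. Many of these pairs have few reads of the lesser arm and could show only a large shift, so these shares do not set the miR-145 arms apart from other hairpins. miR-143* had 8 reads in fibrosis replicate 1, 4 in the shared library and 11 in normal replicate 1, and the proportion of miR-143 to miR-143* did not differ beyond counting error in any pair. With both arms of each hairpin counted, the proportion of miR-143 to miR-145 was 6.47 in fibrosis replicate 1 (5 to 8.48), 9.90 in the shared library (7.56 to 13.2) and 6.59 in normal replicate 1 (5.37 to 8.17). The shared library then had 1.5 times the proportion of normal replicate 1 (1.06 to 2.14).

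The arms of miR-126 kept their order in every library. The reads of miR-126* were 3.50 times those of miR-126 in fibrosis replicate 1 (1.81 to 7.30), 3.06 times in the shared library (1.74 to 5.64) and 4.75 times in normal replicate 1 (2.18 to 11.8). The asterisk in this older naming marks the arm taken to be the minor product, and here that arm held 77.8%, 75.4% and 82.6% of the reads of the hairpin in these libraries. Of the 67 such pairs, the starred arm led in every library in 9, or 13.4%, and miR-126 was among them. The arm proportion in fibrosis replicate 1 was 0.737 times that in normal replicate 1 (0.235 to 2.22), and in the shared library 0.644 times (0.218 to 1.78). With 8 to 17 reads of miR-126 a library, differences of this size were not detectable.

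The balance of smooth muscle to endothelial members was lower in fibrosis replicate 1 and in the shared library than in normal replicate 1. The reads of miR-143 and miR-145 together were 9.19 times those of miR-126 and miR-126* together in fibrosis replicate 1 (496 to 54 reads, interval 6.93 to 12.4), and 9.04 times in the shared library (624 to 69 reads, 7.04 to 11.8). The balance was 17.1 in normal replicate 1 (785 to 46 reads, 12.7 to 23.5). Fibrosis replicate 1 had 0.538 times the balance of normal replicate 1 (0.349 to 0.827), and the shared library 0.530 times (0.351 to 0.794). Fibrosis replicate 1 had 1.02 times the balance of the shared library (0.687 to 1.51).

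The same balance came from different sums. In fibrosis replicate 1 the smooth muscle members summed to 71.4 RPM, 0.643 times the 111 RPM of normal replicate 1 (0.573 to 0.720), beside an endothelial sum that did not differ beyond counting error. In the shared library they summed to 98.2 RPM, 0.884 times that of normal replicate 1 (0.795 to 0.983), beside a higher endothelial sum. Each smooth muscle member gave the lower balance against normal replicate 1 when taken alone. These are not separate checks, as both use the same endothelial reads. miR-143 also holds 87.1% to 92.9% of the smooth muscle reads in a library. For fibrosis replicate 1 it was 0.535 times that of normal replicate 1 with miR-143 alone (0.346 to 0.824) and 0.562 times with miR-145 alone (0.329 to 0.960). For the shared library it was 0.562 times with miR-143 alone (0.372 to 0.843) and 0.302 times with miR-145 alone (0.175 to 0.523).

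**Figure D4:**
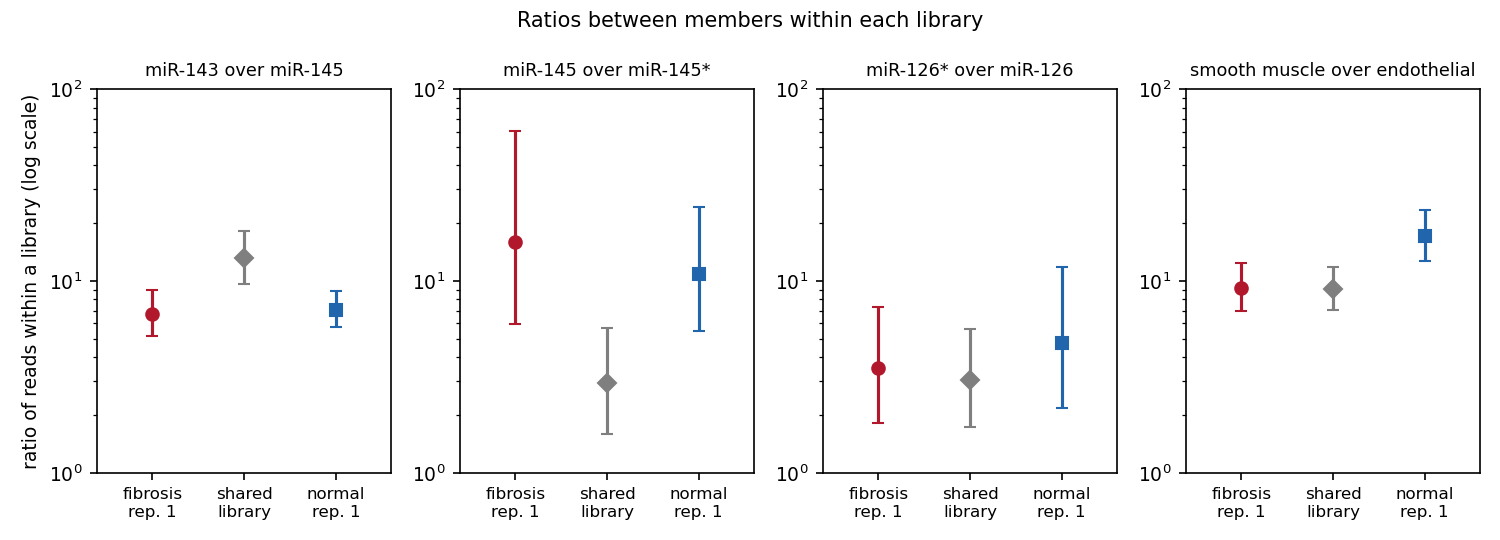
Ratios of reads within each library (vertical axis, log scale) for miR-143 over miR-145, miR-145 over miR-145*, miR-126* over miR-126, and the smooth muscle over the endothelial members, with exact 95% counting intervals. The shared library stands apart in the first panels (13.2 and 2.93), and normal replicate 1 in the last (17.1 against 9.19 and 9.04).

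The comparison that the labels imply called no member. limma on log2(RPM + 1) over the 294 detected miRNAs, with all files as labelled, gave log2 differences of fibrosis over normal of -0.32 for miR-143 (SE 0.31), -0.26 for miR-145 (SE 0.39), 0.18 for miR-126 (SE 0.42) and 0.07 for miR-126* (SE 0.40), each with an adjusted p of 1. It called 0 of all miRNAs (0%), with 4 at an unadjusted p under 0.05. The same library stands in both groups in this fit, so it could hardly call any miRNA, and its 0 calls do not show that the groups are alike. That library also cancels from each difference. The values are therefore the differences between fibrosis replicate 1 and normal replicate 1, made smaller by the averaging, and not a separate estimate. The fitted prior degrees of freedom were infinite, so each SE follows the trend of spread over the 294 miRNAs, not the member's own spread. That spread is between each first replicate and the shared library, whose tissue is not settled. Since separate animals are also not stated, the p-values do not measure the spread between animals of a group. On the recovered reads, edgeR's quasi-likelihood test called 0, with 1 miRNA at an unadjusted p under 0.05, and DESeq2 called 0, with 0 at that level. Both have the same limit, as the shared library stands in both groups there too.

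With the shared library counted once, limma called 0 miRNAs (0%) with it as fibrosis, where 36 had an unadjusted p under 0.05, and 0 (0%) with it as normal, where 27 did. Such a fit takes the spread from the group of 2 libraries and applies it to the lone library. As fibrosis, it gave limma log2 differences of -0.37 for miR-143 (SE 0.36), -0.71 for miR-145 (SE 0.28), 0.57 for miR-126 (SE 0.33) and 0.33 for miR-126* (SE 0.30), with adjusted p-values from 0.62 to 0.723. As normal, it gave -0.59 for miR-143 (SE 0.13, adjusted p 0.541 by limma), -0.08 for miR-145 (SE 0.60), -0.04 for miR-126 (SE 0.56) and -0.12 for miR-126* (SE 0.39). The direction held for miR-143 and miR-145 under both assignments and turned for miR-126 and miR-126*.

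The wider lists to which the members belong held both higher and lower miRNAs. The smooth muscle and mesenchymal list, 16 names all with a row, had 11 measured, with a mean over 1 RPM in fibrosis replicate 1 and normal replicate 1, of which 7 lay below 1 and 4 above. The interval excluded 1 for 4 of the lower (miR-143, miR-145, miR-125b-5p and miR-1) and for 3 of the higher, beside the 22.4% lower and 13.6% higher over all 147 miRNAs, and the list median log2 ratio was -0.26. The list holds 2 names with 0 reads in all libraries, miR-204 and miR-208. The higher ones were miR-199a-3p, also made by stellate cells, at a ratio of 1.69 (1.61 to 1.78), miR-27b at 1.37 (1.06 to 1.78) and miR-24 at 1.33 (1.10 to 1.61). Summed over the list, the level was 795 RPM in fibrosis replicate 1, 1158 RPM in the shared library and 594.5 RPM in normal replicate 1. This sum is led by miR-199a-3p, at 592 RPM, 903.4 RPM and 350.5 RPM in the same libraries. Both miR-199a-3p and miR-143 were higher in the shared library than in fibrosis replicate 1, while normal replicate 1 was the lowest library for miR-199a-3p and the highest for miR-143.

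Of the striated muscle members of that list, miR-1 stood at 2.01 RPM in fibrosis replicate 1, 5.82 RPM in the shared library and 4.38 RPM in normal replicate 1. miR-133a and miR-133b had 0 reads in fibrosis replicate 1 and in the shared library, and 2 reads and 1 read in normal replicate 1.

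The endothelial and angiogenic list, 18 names of which 17 had a row, had 14 measured, 5 with a ratio of fibrosis replicate 1 to normal replicate 1 below 1 and 9 above. The interval excluded 1 for 1 lower member, miR-92a, and 3 higher members, miR-27a, miR-24 and miR-503, beside the same 22.4% and 13.6%, and the list median log2 ratio was 0.21. miR-24 is on both lists, and miR-296* was at 0 reads in all libraries. miR-221 and miR-222, which are made by endothelium and smooth muscle, stood at 39.0 and 6.76 RPM in fibrosis replicate 1, 31.1 and 5.19 RPM in the shared library, and 42.6 and 5.66 RPM in normal replicate 1. Summed over the list, the level was 231.8 RPM in fibrosis replicate 1, 217.7 RPM in the shared library and 212.2 RPM in normal replicate 1. The name without a row was miR-10a. Its listed form, miR-10a-5p, was left out of these counts, the median and the sums. miR-10a-5p stood at 89.9 RPM in fibrosis replicate 1, 55.2 RPM in the shared library and 103 RPM in normal replicate 1. With it, the shared library and not normal replicate 1 would have had the lowest sum. miR-322 was counted by its plain name, and its more abundant starred arm was also left out. miR-322* stood at 50.8 RPM in fibrosis replicate 1, 62.6 RPM in the shared library and 41.2 RPM in normal replicate 1. Both medians stand beside -0.13 over all 147 miRNAs.

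Markers of other cells differed between the same libraries. All 8 hepatocyte miRNAs lay below 1 in fibrosis replicate 1 over normal replicate 1, beside 95 of all 147, with a median log2 ratio of -0.36. The interval lay below 1 for 7 of the 8, beside 22.4% of all 147. Such counts depend on depth, since intervals narrow as reads rise. Of these, miR-365 was counted by its plain name, with 31 reads in fibrosis replicate 1 and 51 in normal replicate 1. Its starred arm, with 62 and 87 reads, was left out. miR-122, with 1695491 reads in fibrosis replicate 1 and 1860495 in normal replicate 1, had a ratio of 0.927 (0.925 to 0.929). That is above the median of 0.916 over all 147, and the other hepatocyte miRNAs lay below that median. They summed to 253122 RPM in fibrosis replicate 1, 257063 RPM in the shared library and 273766 RPM in normal replicate 1. The erythroid pair miR-451 and miR-144 summed to 2.88, 2.04 and 7.78 RPM in the same libraries, so normal replicate 1 was highest in these miRNAs as well as in miR-143 and miR-145. The 6 leukocyte miRNAs, all detected and led by miR-142-5p, summed to 55 RPM in fibrosis replicate 1, 75.2 RPM in the shared library and 46.1 RPM in normal replicate 1, the order also seen for miR-126 and miR-126*. That sum follows miR-142-5p, and of the 3 leukocyte miRNAs measured in fibrosis replicate 1 over normal replicate 1, 2 lay below 1 and 1 above, with a median log2 ratio of -0.33. The 8 biliary and other epithelial miRNAs, led by miR-31 and with miR-205 at 0 reads in all libraries, summed to 97.7, 126.3 and 116.3 RPM in the same order. Their part in the results for the members was not tested.

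The profiles most like each member were sought over the 3 distinct libraries, among miRNAs whose mean reached 10 RPM, by the distance between log2 levels centred on their mean. Nearest to miR-143 were miR-193, miR-101a and miR-99a, at distances of 0.21, 0.21 and 0.23, against a median distance of 0.63, and the first 2 of these are on the hepatocyte list. miR-101a stood at 162.1 RPM in fibrosis replicate 1, 201.4 RPM in the shared library and 210.9 RPM in normal replicate 1. Nearest to miR-145 were miR-598-3p, miR-29b and miR-10a-5p, at 0.21, 0.26 and 0.28, against a median of 0.73. Nearest to miR-126 were miR-199a-3p, miR-142-5p and miR-24, at 0.11, 0.12 and 0.31, against a median of 0.91, and nearest to miR-126* were let-7e, miR-322* and miR-24, at 0.06, 0.11 and 0.18, against a median of 0.50.

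Among the members themselves, the arms of miR-126 were 0.46 apart and miR-143 and miR-145 were 0.76 apart, farther than miR-143 was from miR-126* (0.62). miR-24 was thus among the nearest for both arms of miR-126, and no miRNA was shared between the lists of miR-143 and miR-145. Such distances over 3 libraries are a description, and those of miR-126 rest on 8 to 17 reads.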

How the data were processed

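The authors deposited 1 file per sample with values in RPM. Per the submitters' processing notes, CASAVA 1.4 and build rn5 were used, and no aligner, annotation or multiple-match rule is given in the sources used here. Each deposited RPM value is a whole multiple of 1 read (0.1414 to 0.1573 RPM), so that whole reads came back from 100% of the values above 0, within 0.01 reads. Listed miRNAs took 50.5% to 52.5% of the scaling totals.

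Groups follow the source label. Ratios carry exact 95% intervals of the reads (Clopper-Pearson within and between libraries, conditional for ratios of ratios; Python 3.11.15, numpy 2.4.6, pandas 2.3.3, scipy 1.17.1, matplotlib 3.10.9). limma 3.58.1 (R 4.3.3, trended prior, Benjamini-Hochberg adjustment) was fitted on log2(RPM + 1), which understates changes of miRNAs with low levels. The recovered reads went to edgeR 4.0.16 and DESeq2 1.42.0, as alternatives beside other scalings, pseudocounts, filters, a block and left-out samples. With 2 samples against 2, an exact permutation test cannot go below 0.333. That bound is for distinct samples, and it is higher here because 1 library stands in both groups.

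Scripts were tested on simulated reads. The members and lists were chosen with earlier results of these data known. Named miRNAs are the members, their neighbours in abundance, the 3 most similar profiles and list members. The 20-read minimum for arm pairs was chosen after the data were seen. Sequences came from RefSeq (GRCr8), matched by name.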

Additional observations from a re-analysis of the deposited data

How the results depend on the processing

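Under 5 other scalings (TMM, DESeq2 size factors, upper quartile, reads on listed miRNAs, and those without miR-122) the ratio of fibrosis to normal replicate 1 stayed within its counting interval for all 4 members. It ranged from 0.608 to 0.669 for miR-143, 0.639 to 0.703 for miR-145, 1.45 to 1.60 for miR-126 and 1.07 to 1.18 for miR-126*. The choice of library mattered more. With the shared library in place of fibrosis replicate 1, the ratio was 0.938 for miR-143, and the ratio of miR-143 to miR-145 was 1.86 times that of normal replicate 1. With the shared library in place of normal replicate 1, the ratio was 1.33 for miR-145, the ratio of miR-143 to miR-145 became 0.512 times, and the smooth muscle to endothelial balance 1.02 times that of the shared library. The cause was not tested.

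limma called 0 miRNAs under each alternative that kept all files, the replicate block included, and edgeR and DESeq2, each run once on all files as labelled, called 0. All of these hold the same library in both groups and could hardly call any miRNA. In the block fit the second pair is 1 library set against itself, so its outcome was nearly fixed in advance. Leaving out either second sample repeats the fits with the shared library counted once. Whether the replicate numbers pair samples cannot be checked, as both second samples are 1 library. Leaving out 1 sample at a time moved the limma log2 difference of miR-143 to -0.046 without fibrosis replicate 1 and to -0.593 without fibrosis replicate 2, against -0.319 with all files. The difference moved between -0.711 and 0.183 for miR-145, between -0.215 and 0.57 for miR-126 and between -0.191 and 0.335 for miR-126*. The direction of these 3 turned without normal replicate 1, when the shared library alone stands for normal and is also in the fibrosis group. For miR-126 and miR-126* it turned also without fibrosis replicate 2. Without either first replicate, the shared library stands in both groups. Each value is then the difference between that library and the remaining first replicate, made smaller by the averaging. With the shared library counted once as normal, the differences were -0.0377 for miR-126 and -0.119 for miR-126*. At a mean of 10 RPM or more only miR-143 could be fitted. Depth limits miR-126 most, with 8 to 17 reads a library.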
